A study of Mus musculus with 8 samples.

Results

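The MHC class I presentation genes are a set of 10: the heavy chains H2-K1 and H2-D1, their light chain B2m, the peptide transporter subunits Tap1 and Tap2, the loading factor Tapbp, the immunoproteasome subunits Psmb8, Psmb9 and Psmb10, and the transactivator Nlrc5. They were taken by gene symbol from a count table of 55450 genes, and all 10 passed the filter on low counts that 16662 genes passed. Levels were measured by RNA sequencing of cells enriched for c-Kit, a growth factor receptor, on magnetic beads from B16F10 tumours, a pigmented mouse melanoma line. The hosts were wild-type C57BL6 mice, which at 6 weeks of age were given 150000 tumour cells under the skin and were killed on day 17. The injected cells were a Scramble control line (4 libraries, numbered 2 to 5) or a PERK KO line that lacks PERK, a kinase of the endoplasmic reticulum stress response (4 libraries, numbered 1 to 4). The deletion was thus carried by the tumour cells and not by the host cells, and whether either line is 1 clone is not stated. The labels number 1 tumour per library but do not say that the tumours grew in separate mice, so p-values measure the spread between these tumours.

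MHC class I molecules show peptides from inside a cell to CD8 T cells. The proteasome cuts proteins into peptides, and in leukocytes, or under interferon, the subunits Psmb8, Psmb9 and Psmb10 take the place of the constitutive subunits Psmb5, Psmb6 and Psmb7. The TAP transporter moves the peptides into the endoplasmic reticulum, where tapasin (Tapbp) helps to load them onto a heavy chain bound to beta-2-microglobulin. Nlrc5 acts at the promoters of several of these genes. Melanoma cells often hold the pathway at a low level, while most leukocytes hold it at a high one, so the set was read beside Ptprc, which encodes the pan-leukocyte surface protein CD45.

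Library totals ran from 29006949 to 56697163 counts, and a floor of 3 counts corresponded to 0.0529 to 0.103 CPM (counts per 1000000 of the TMM-scaled library total, the unit of all levels given here). Such floors cover counting error only. Eif2ak3, which encodes PERK, stood at 48.3 to 59.2 CPM in Scramble and 7.73 to 22.7 CPM in PERK KO tumours, so all 8 libraries matched their labels. Kit stood at 170 to 223 CPM in Scramble and 139 to 211 CPM in PERK KO tumours (edgeR adjusted p = 0.559). The labelled cell type, blood precursors, was only partly borne out by its markers. Of 12 haematopoietic progenitor markers, Kit among them, 10 passed the filter on low counts. Mpo and Elane did not: Mpo was at 0 in all 8 libraries and Elane in 7 of 8. The 16 melanocyte lineage markers together took 29956 to 30642 CPM in Scramble and 21146 to 25587 CPM in PERK KO tumours. At an edgeR adjusted p under 0.05, 7.66% of all genes were called higher in PERK KO tumours and 6.13% were called lower. Higher genes made up 55.5% of the calls, 68.7% with upper-quartile scaling and 47.7% with library totals alone.

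In PERK KO tumours, 9 of the 10 presentation genes were higher than in Scramble tumours, 0 were lower, and Psmb10 did not pass the test (edgeR quasi-likelihood test, adjusted p under 0.05). The background share of higher calls was the 7.66% given above. The 9 genes rose by 0.84 to 3.02 on the log2 scale, and the median log2 change of the 10 was 1.36, against -0.02 over all genes tested. In the same 9 genes every PERK KO library lay above every Scramble library, a pattern found in 10.2% of all genes tested. Psmb10 apart, the changes ranged widely: the immunoproteasome subunits Psmb8 and Psmb9 changed most, the transporter, heavy and light chains and Nlrc5 came next, and Tapbp changed least among the 9. In these bulk samples, more cells of a type and more RNA per cell cannot be told apart.

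**Figure D1:**
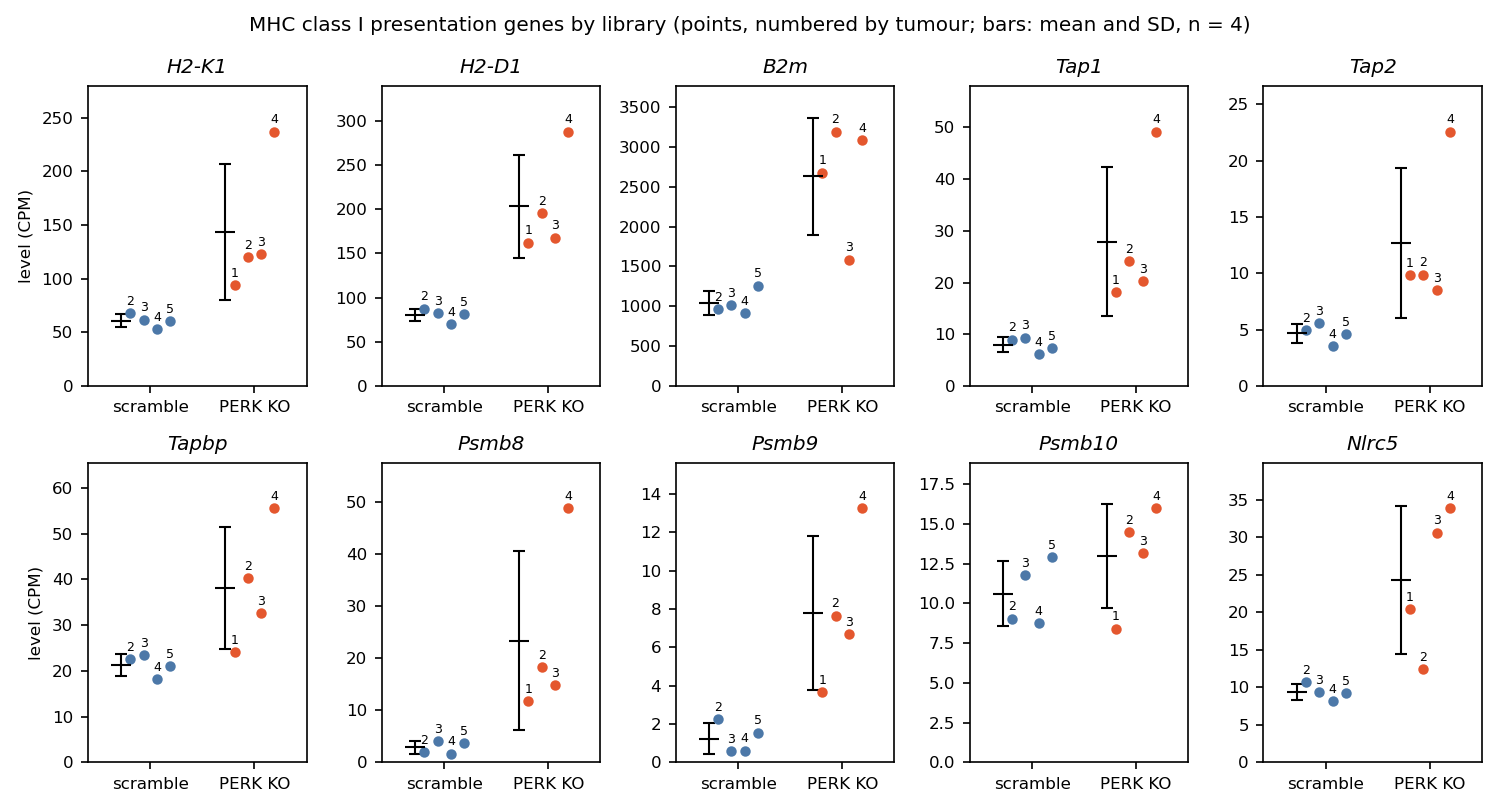
Level in CPM (vertical axis of each panel, starting at 0) of the 10 presentation genes in each library, as points numbered by tumour, with the mean and SD over 4 libraries per group as bars. The groups are apart in all panels but that of Psmb10, and PERK KO library 4 is the highest library in all panels but that of B2m.

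Marker genes of leukocytes moved with the set. Ptprc (mm10 chromosome 1, 138062861 to 138175708, minus strand) stood at 8.82, 6.99, 3.42 and 9.67 CPM in Scramble libraries 2 to 5. In PERK KO libraries 1 to 4 it stood at 20.9, 43.3, 32.8 and 115 CPM. Ptprc therefore rose, with a log2 change of 2.88 (SE 0.59, edgeR adjusted p = 0.0179), with library 4 far above the other PERK KO libraries and library 1 the lowest. Without PERK KO library 4 its log2 change was 2.16, and its call ended without Scramble library 2 or 3 (edgeR adjusted p = 0.0504 and 0.0688) or with no filter on low counts (edgeR adjusted p = 0.0521).

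Of 19 tested pan-leukocyte markers 16 were higher, with a median log2 change of 2.69 over the 19. The list took 467 to 536 CPM in Scramble and 762 to 1850 CPM in PERK KO tumours. Most of the Scramble sum came from Arhgdib (223 to 263 CPM) and Arhgap30 (110 to 119 CPM), which did not pass (edgeR adjusted p = 0.428 and 0.316). All 11 macrophage and monocyte markers were higher (60.0 to 148 against 318 to 970 CPM), as were all 9 mast cell markers (23.3 to 166 against 706 to 3112 CPM) and 7 of 8 tested dendritic cell markers (8.25 to 22.5 against 75.0 to 374 CPM). Of 5 tested T and NK cell markers 0 passed (2 at an unadjusted p under 0.05, 1 with DESeq2 and 0 with limma voom), at 0.433 to 2.19 against 2.45 to 42.9 CPM. Of 10 tested haematopoietic progenitor markers 6 were higher (226 to 300 against 277 to 545 CPM). Among these 6, Gata2 is also counted in the mast cell list and Flt3 in the dendritic cell list. Kit, which did not pass, made up most of the Scramble sum, at 170 to 223 CPM. Of 7 endothelial markers 0 were higher (0 also at an unadjusted p under 0.05, with DESeq2 and with limma voom). In the other direction, 10 of 16 melanocyte lineage markers were lower. Of 7 tested epithelial markers 6 were higher (3.40 to 5.30 against 63.0 to 164 CPM), against 7.66% of all genes tested. Several of these 6 had 0 counts in some Scramble libraries and passed the filter on low counts through the PERK KO group, which favours a higher call. The part of these cell types in the rise of the presentation genes was examined here only through Ptprc and the pan-leukocyte and melanocyte lists, and was otherwise not tested.

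The classical heavy chains hold the peptide at the cell surface. H2-K1 (ENSMUSG00000061232.16, mm10 chromosome 17, 33996017 to 34000347, minus strand) stood at 67.5, 61.8, 52.6 and 60.6 CPM in Scramble libraries 2 to 5 and at 94.0, 120, 123 and 237 CPM in PERK KO libraries 1 to 4. Its means were 60.6 ± 6.13 and 143 ± 63.7 CPM (SD, n = 4 per group), a log2 change of 1.24 (SE 0.25, edgeR adjusted p = 0.0126). The Scramble libraries lay close together, and the spread of the PERK KO group came mostly from library 4. H2-D1 (ENSMUSG00000073411.11, chromosome 17, 35262730 to 35267499, plus strand) stood at 87.2, 82.0, 70.2 and 81.3 CPM in Scramble and at 162, 195, 168 and 287 CPM in PERK KO tumours. It had the smallest adjusted p of the 10, with a log2 change of 1.34 (SE 0.17, edgeR adjusted p = 0.000813), and its lowest PERK KO library was well above its highest Scramble library. Of the 105-base windows of these chains, 0.7% for H2-K1 and 3.4% for H2-D1 also occur in another gene, in each case in other class I genes or gene models and not in the other of this pair.

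The light chain B2m (ENSMUSG00000060802.8, chromosome 2, 122147686 to 122153083, plus strand), which pairs with every class I heavy chain, was by far the most abundant of the set. It stood at 968, 1016, 915 and 1260 CPM in Scramble and at 2678, 3192, 1584 and 3083 CPM in PERK KO libraries 1 to 4. The log2 change was 1.34 (SE 0.20, edgeR adjusted p = 0.00232). Its order among PERK KO libraries differed from that of the heavy chains, with library 3 lowest and library 2 highest. To set genes side by side, levels were divided by exon length, with each annotated exon base of a gene counted once, whether or not it is used here. B2m then had 1209 ± 177 CPM per kb in Scramble and 3063 ± 854 CPM per kb in PERK KO tumours. On that scale H2-K1 had 20.6 and 48.8 and H2-D1 31.1 and 78.8 CPM per kb, so the light chain exceeded both heavy chains in each group.

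The promoters of H2-K1, H2-D1 and B2m are shown because the class I promoter is a textbook module. It holds interferon and NF-kB elements followed by sites for the Nlrc5-containing complex. The log2 changes of these 3 genes, 1.24, 1.34 and 1.34, were not particular to them, as Nlrc5 had 1.38 and Tap2 had 1.44. Each line gives the 250 bases before a RefSeq start, for H2-K1 1 of its 2 windows (GRCm38.p6, 5′ to 3′ on the gene's strand). Capitals mark matches, on either strand, to AANNGAAA (an interferon regulatory factor element), GGGNNTTNCC (an NF-kB element), TGACG (part of a cyclic AMP response element) and CCAAT (the Y box core). No marked match overlaps another.
H2-K1, chr17:34000348-34000597, minus strand: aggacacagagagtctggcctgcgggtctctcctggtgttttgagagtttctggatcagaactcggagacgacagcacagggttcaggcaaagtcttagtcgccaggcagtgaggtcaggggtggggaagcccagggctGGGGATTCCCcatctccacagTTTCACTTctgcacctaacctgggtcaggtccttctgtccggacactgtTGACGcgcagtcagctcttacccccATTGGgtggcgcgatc
H2-D1, chr17:35262844-35263093, plus strand: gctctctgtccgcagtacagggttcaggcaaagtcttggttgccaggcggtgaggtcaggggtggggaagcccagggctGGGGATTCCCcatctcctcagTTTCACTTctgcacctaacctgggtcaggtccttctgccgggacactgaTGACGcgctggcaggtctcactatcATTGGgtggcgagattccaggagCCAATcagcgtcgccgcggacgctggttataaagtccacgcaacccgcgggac
B2m, chr2:122147437-122147686, plus strand: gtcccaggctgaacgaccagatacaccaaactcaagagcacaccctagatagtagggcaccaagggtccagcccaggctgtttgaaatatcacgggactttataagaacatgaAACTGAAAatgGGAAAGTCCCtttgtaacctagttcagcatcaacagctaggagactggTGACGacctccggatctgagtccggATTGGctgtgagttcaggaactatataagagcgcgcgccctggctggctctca

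The heavy chain promoters shared an identical run of 47 bases. In both, the NF-kB match came first, then the interferon match, the TGACG and the CCAAT match. In B2m the interferon match preceded the NF-kB match, and the other matches followed in the same order. Of the 10 genes, 8 had a promoter window in the RefSeq table, and Tap2 and Nlrc5 did not. The interferon match occurred in 3 of these 8 (H2-K1, H2-D1 and B2m) and in 21.31% of 32851 windows of this length, and the NF-kB match in the same 3 and in 4.11%. The CCAAT match occurred in 6 of 8 and in 33.85% of all windows, and the TGACG match in 5 of 8 and in 17.77%. Psmb8 and Psmb10 held none of the 4 patterns in this window. These matches describe letters only, and binding was not measured.

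Tap1 and Tap2 form the transporter that carries peptides into the endoplasmic reticulum. Tap1 (ENSMUSG00000037321.17, chromosome 17, 34187553 to 34197225, plus strand) stood at 8.96, 9.31, 6.20 and 7.33 CPM in Scramble and at 18.2, 24.1, 20.2 and 49.2 CPM in PERK KO tumours. The log2 change was 1.81 (SE 0.30, edgeR adjusted p = 0.00330). Tap2 (ENSMUSG00000024339.12, chromosome 17, 34203527 to 34216321, plus strand) stood at 4.98, 5.60, 3.53 and 4.58 CPM and at 9.81, 9.88, 8.48 and 22.6 CPM, a log2 change of 1.44 (SE 0.32, edgeR adjusted p = 0.0136). Both subunits were lowest in Scramble library 4, which also had the lowest Ptprc level, and highest in PERK KO library 4, which had the highest. Per kilobase of exon the subunits were near each other, at 1.45 and 1.24 CPM per kb in Scramble and 5.10 and 3.35 CPM per kb in PERK KO tumours.

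Tapbp (ENSMUSG00000024308.15, chromosome 17, 33915899 to 33929292, plus strand) encodes tapasin, which bridges the transporter and the empty heavy chain. It stood at 22.6, 23.5, 18.2 and 21.1 CPM in Scramble and at 24.1, 40.3, 32.6 and 55.6 CPM in PERK KO tumours. PERK KO library 1 was barely above the highest Scramble library. The log2 change was 0.84 (SE 0.21, edgeR adjusted p = 0.0239), and leaving out any 1 Scramble library or PERK KO library 2 ended the call (edgeR adjusted p = 0.0554 to 0.0761).

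Of the immunoproteasome subunits, Psmb8 and Psmb9 passed the test and Psmb10 did not. Psmb8 (ENSMUSG00000024338.15, chromosome 17, 34197721 to 34201454, plus strand) encodes the chymotrypsin-like subunit. It stood at 2.03, 4.10, 1.71 and 3.70 CPM in Scramble and at 11.8, 18.2, 14.8 and 48.8 CPM in PERK KO tumours. Its log2 change of 3.02 (SE 0.49, edgeR adjusted p = 0.00443) was the highest of the 10, and it was 2.36 without PERK KO library 4, still past the threshold.

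Psmb9 (ENSMUSG00000096727.3, chromosome 17, 34181987 to 34187764, minus strand) replaces Psmb6. It stood at 2.25, 0.584, 0.607 and 1.55 CPM in Scramble and at 3.65, 7.66, 6.69 and 13.3 CPM in PERK KO tumours, a log2 change of 2.65 (SE 0.53, edgeR adjusted p = 0.00846). It was the scarcest of the set, with 28 to 124 counts in a Scramble library. Psmb10 (ENSMUSG00000031897.9, chromosome 8, 105935735 to 105938444, minus strand), which replaces Psmb7, stood at 9.03, 11.8, 8.75 and 12.9 CPM in Scramble and at 8.41, 14.5, 13.2 and 16.0 CPM in PERK KO tumours. Here the groups overlapped: PERK KO library 1 was below all Scramble libraries. The log2 change of 0.29 (SE 0.23, edgeR adjusted p = 0.478) did not pass.

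In Scramble tumours Psmb10 already had 6.23 CPM per kb of exon, against 0.853 for Psmb8 and 0.340 for Psmb9. In PERK KO tumours the values were 7.63, 6.92 and 2.14 CPM per kb. Mean levels there, not divided by length, were 13.0 CPM for Psmb10 and 23.4 CPM for Psmb8. Which of the 2 was higher thus depended on the exon length used, 1705 bases for Psmb10 and 3381 for Psmb8. Psmb8, Psmb9, Tap1 and Tap2 lie next to each other on chromosome 17, and in the GENCODE models Tap1 and Psmb9 overlap on opposite strands at their starts. The libraries were strand-specific, but the strand setting of the counting is not given in the sources used here, so reads from the overlap may be shared between that pair. B2m overlaps Patl2, Tapbp overlaps Zbtb22, and other gene models overlap Tap2, Psmb8, Psmb10 and Nlrc5, with the same limit. The stretch between the RefSeq starts of Tap1 and Psmb9 is shown because 1 promoter serves both genes, whose log2 changes were 1.81 and 2.65. The RefSeq starts lie 226 bases apart. The GENCODE model of Psmb9 reaches to 34187764, past the GENCODE start of Tap1 at 34187553, so the stretch lies inside that model. The line gives the 225 bases that both RefSeq windows share (GRCm38.p6, 5′ to 3′ on the Tap1 strand), with the CCAAT and TGACG matches in capitals.
Tap1 and Psmb9, chr17:34187331-34187555, plus strand: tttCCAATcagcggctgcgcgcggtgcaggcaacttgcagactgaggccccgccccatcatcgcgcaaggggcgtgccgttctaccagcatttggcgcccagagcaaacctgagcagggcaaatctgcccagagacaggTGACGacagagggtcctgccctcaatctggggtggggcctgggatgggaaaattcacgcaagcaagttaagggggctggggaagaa

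Each immunoproteasome subunit was also divided by the constitutive subunit it replaces, a ratio of counts within a library that needs no scaling. Psmb8 to Psmb5 was 0.0971, 0.185, 0.0673 and 0.230 in Scramble libraries 2 to 5 and 0.809, 1.32, 0.933 and 2.69 in PERK KO libraries 1 to 4. The mean log2 ratio was 3.31 higher, a 9.90-fold difference (exact two-sided permutation p = 0.0286, which is the smallest that 4 against 4 allows, and 0.0429 after Benjamini-Hochberg adjustment over 3 ratios). Psmb9 to Psmb6 was 0.0187, 0.00487, 0.00497 and 0.0120 in Scramble and 0.0241, 0.0588, 0.0584 and 0.114 in PERK KO tumours, a 6.45-fold difference (2.69 on the log2 scale) with the same exact permutation p of 0.0286, adjusted 0.0429. For both pairs every PERK KO library lay above every Scramble library. Psmb10 to Psmb7 was 0.0470, 0.0599, 0.0452 and 0.0564 in Scramble and 0.0414, 0.0666, 0.0906 and 0.0809 in PERK KO tumours, a log2 difference of 0.37 that did not pass (exact permutation p = 0.229). The constitutive partners themselves did not pass the test: Psmb5 had a log2 change of -0.44, Psmb6 of 0.06 and Psmb7 of -0.09 (edgeR adjusted p = 0.108, 0.773 and 0.727). Ptprc and the leukocyte lists rose in the same libraries, as given above, and how far they set these ratios was not tested.

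**Figure D2:**
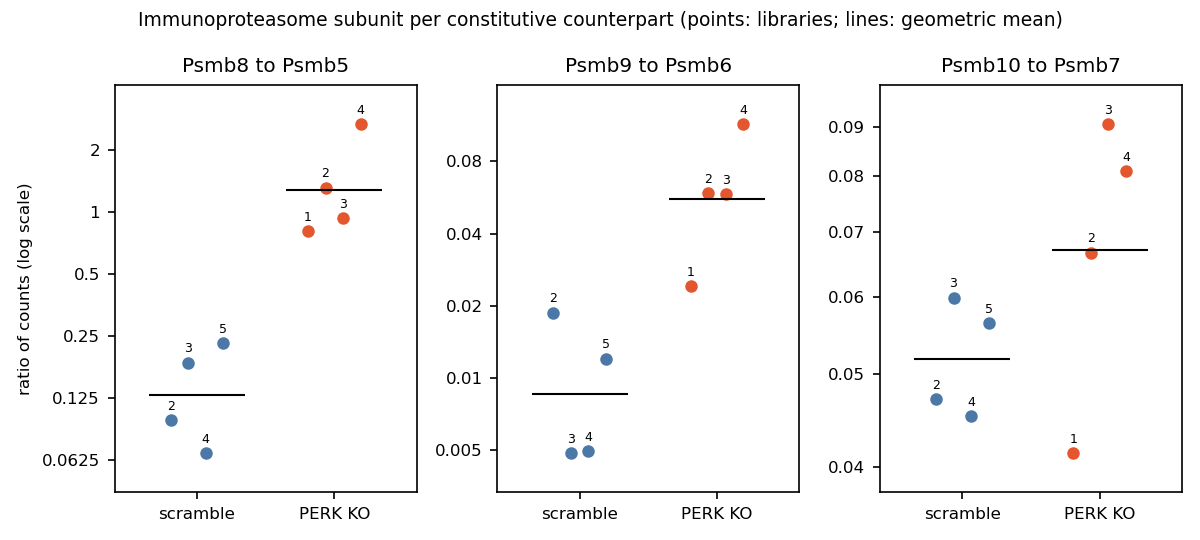
Ratio of the counts of an immunoproteasome subunit to those of its constitutive counterpart (vertical log axis, a scale of its own in each panel) in each library, with lines at the geometric mean of each group. For Psmb8 to Psmb5 the PERK KO libraries sit at 0.809 to 2.69, above the Scramble libraries at 0.0673 to 0.230, while for Psmb10 to Psmb7 the groups overlap.

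Nlrc5 (ENSMUSG00000074151.13, chromosome 8, 94434356 to 94527272, plus strand) encodes the transactivator of class I promoters. It stood at 10.7, 9.34, 8.19 and 9.27 CPM in Scramble and at 20.4, 12.4, 30.6 and 33.9 CPM in PERK KO tumours, a log2 change of 1.38 (SE 0.27, edgeR adjusted p = 0.00742). The groups did not overlap. PERK KO library 2 had the lowest Nlrc5 level of its group although its Ptprc level was the second highest, and library 2 was also the one with the highest B2m level.

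How far the rise followed Ptprc was examined in 3 ways. The first set each member's change beside that of Ptprc. The log2 changes of Psmb8 and Psmb9 were 1.05 and 0.92 times that of Ptprc, and that of Tap1 was 0.63 times. For Tap2, Nlrc5, B2m, H2-D1 and H2-K1 the ratio was 0.50, 0.48, 0.47, 0.47 and 0.43, for Tapbp 0.29 and for Psmb10 0.10. Such a ratio of log2 changes is not the part of a rise that follows Ptprc. It also depends on the gene's level in cells without Ptprc, which was not measured. The same limit holds for the level per Ptprc count and for the slopes given below.

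The second way tested the level per Ptprc count, with the Ptprc count of each library as the offset in edgeR. Of the 10 genes, 0 were higher per Ptprc count in PERK KO tumours (0 also at an unadjusted p under 0.05), against 0.582% of all genes. Lower per Ptprc count were 3 of 10 (4 at an unadjusted p under 0.05), against 73.4% of all genes, because any gene that rises less than Ptprc moves down on this scale. The median of the 10 was -1.28 on the log2 scale and that of all genes -2.58. The 3 called were H2-K1 at -1.55 (SE 0.65, edgeR adjusted p = 0.0246), Tapbp at -1.91 (SE 0.66, edgeR adjusted p = 0.00606) and Psmb10 at -2.37 (SE 0.69, edgeR adjusted p = 0.00102). The H2-K1 call ended without Scramble library 3 or 4 or PERK KO library 2 or 3, and without PERK KO library 1 the number of lower genes was 7.

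Psmb8 gave 0.230, 0.587, 0.500 and 0.382 counts per Ptprc count in Scramble and 0.563, 0.421, 0.450 and 0.423 in PERK KO tumours, so its groups overlapped on this scale. Its difference of 0.13 on the log2 scale had an SE of 0.65 (edgeR adjusted p = 0.857), wide enough that an equal rise of Psmb8 and Ptprc was neither shown nor refuted. For Psmb9 the difference was -0.01 (SE 0.72, edgeR adjusted p = 0.988), from 0.255, 0.0835, 0.177 and 0.160 against 0.175, 0.177, 0.204 and 0.115 counts per Ptprc count. Psmb10 fell from 1.02, 1.69, 2.56 and 1.34 to 0.402, 0.334, 0.401 and 0.139 counts per Ptprc count. The remaining genes that did not pass were H2-D1 at -1.35, B2m at -1.24, Tap1 at -0.99, Tap2 at -1.32 and Nlrc5 at -1.24 (edgeR adjusted p = 0.0505, 0.0800, 0.155, 0.0665 and 0.0757).

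**Figure D3:**
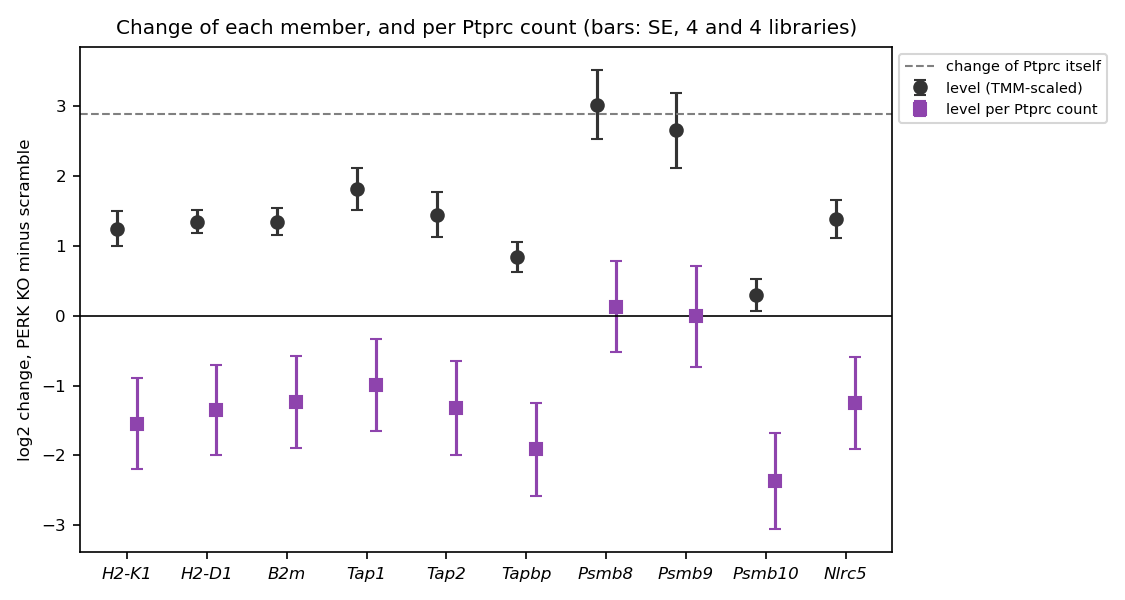
Log2 change between PERK KO and Scramble tumours (vertical axis) of each gene's level (circles) and of its level per Ptprc count (squares), with SE bars from the edgeR fits and a dashed line at the change of Ptprc, 2.88. Circles of Psmb8 (3.02) and Psmb9 (2.65) lie near the dashed line and their squares near 0, and the other squares lie between -0.99 and -2.37.

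The third way used the differences among tumours of 1 group, which the group comparison does not set. The slope of each gene on the log2 CPM of Ptprc, shared within both groups, would be 1 for a gene that doubles with each doubling of Ptprc. All 10 slopes were above 0, with a median of 0.41 against -0.0076 over all genes, and 8 had an unadjusted p under 0.05. The share of all genes with such an unadjusted p is not given here. The slope passed at an edgeR adjusted p under 0.05 for 5 of 10 genes, against 1.29% of all genes. These were Psmb8 at 0.79 (SE 0.15), Tap1 at 0.52 (SE 0.10), H2-K1 at 0.44 (SE 0.07), Tapbp at 0.39 (SE 0.08) and H2-D1 at 0.31 (SE 0.06). Psmb9 had the steepest slope, 0.83 (SE 0.25), and did not pass (edgeR adjusted p = 0.186). The slopes of B2m (0.18, SE 0.12) and Nlrc5 (0.23, SE 0.16) were the lowest in the fit of all 8 libraries, and neither passed (edgeR adjusted p = 0.695 and 0.717).

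The number of slopes that passed depended on which libraries were kept. Without PERK KO library 4, which has the highest Ptprc level, 0 of the 10 passed, and the 5 slopes became 0.59, 0.31, 0.24, 0.34 and 0.20 in the order given above (edgeR adjusted p = 0.9995 for each). Without PERK KO library 1 also 0 passed, with slopes of 0.82, 0.54, 0.42, 0.32 and 0.32. Most of these were near the slopes of the fit of all 8 libraries, so here the calls ended with little change in slope. The count was 2 without Scramble library 2, 3 or 4 or PERK KO library 3. The share of all genes that passed in these smaller fits is not given here. Among the slopes that did not pass, that of Nlrc5 was 0.022 without PERK KO library 4, and that of B2m was 0.29 without PERK KO library 1 and 0.12 without PERK KO library 3.

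The same fit gives the group difference that remains at equal Ptprc. It passed for 0 of 10 genes at an edgeR adjusted p under 0.05, against 0.150% of all genes. At an unadjusted p under 0.05 there were 2 genes: H2-D1 at 0.49 (SE 0.18, edgeR adjusted p = 0.417) and B2m at 0.87 (SE 0.35, edgeR adjusted p = 0.484). For H2-K1 the remaining difference was -0.016 (SE 0.24) and for Tap2 0.05 (SE 0.44). Psmb8 kept 0.70 (SE 0.48), Nlrc5 0.75 (SE 0.49), Psmb9 0.43 (SE 0.73) and Tap1 0.31 (SE 0.33), while Tapbp stood at -0.26 (SE 0.26) and Psmb10 at -0.53 (SE 0.39). Of the variance of log2 Ptprc over the 8 libraries, 75.6% lies between the groups, so group and Ptprc level can be told apart only in part, and the intervals are wide. With the pan-leukocyte mean or the melanocyte mean in place of Ptprc, 0 of 10 passed as well (0 at an unadjusted p under 0.05 in either). Over all genes tested these fits called 0.066% and 0%, so counts of 0 among the 10 were near the background.

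**Figure D4:**
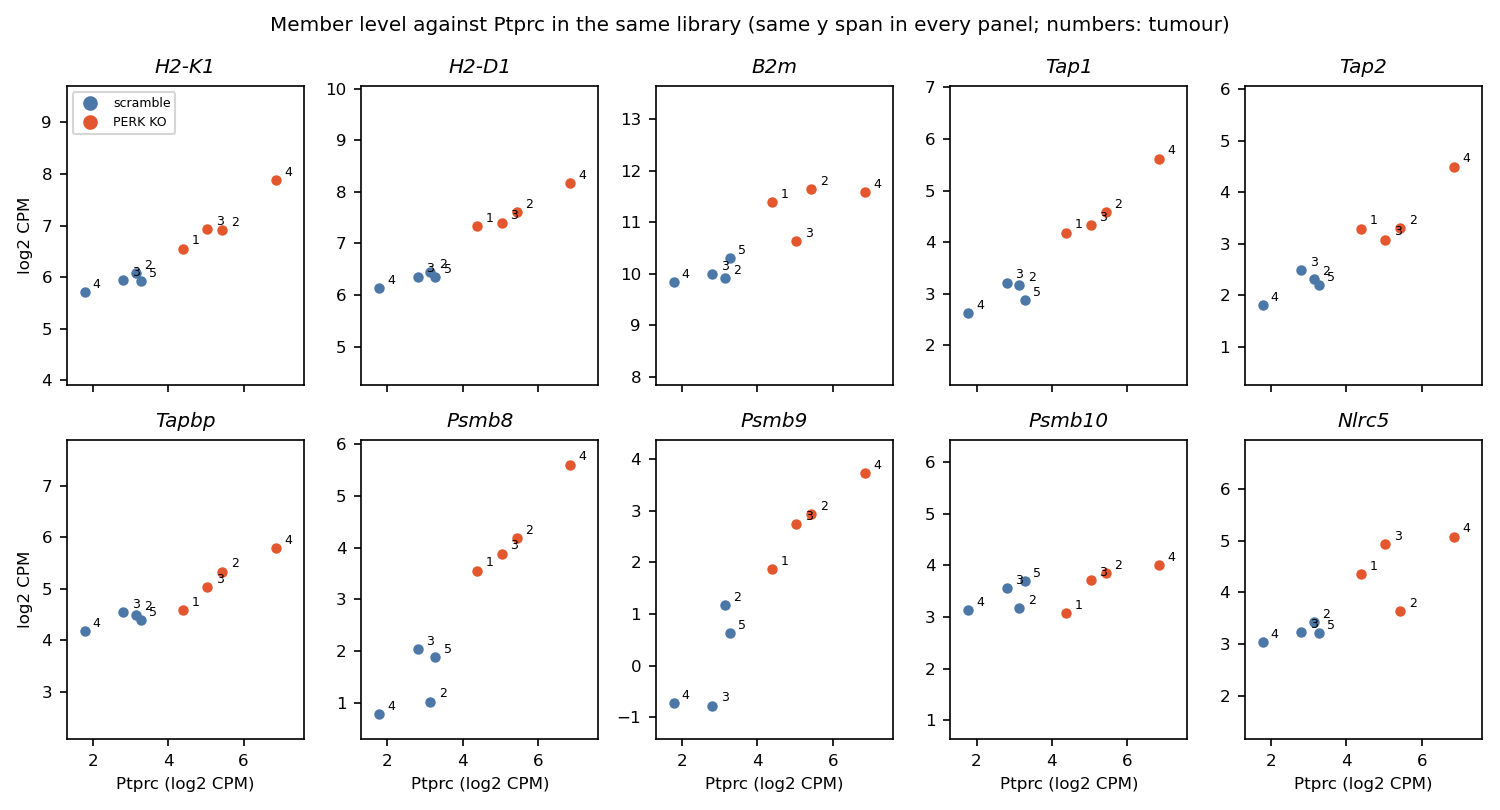
Log2 CPM of each presentation gene (vertical axis, the same span in every panel) against log2 CPM of Ptprc in the same library (horizontal axis), with points coloured by group and numbered by tumour. Psmb8 and Psmb9 climb steeply over both groups, Psmb10 stays nearly level, and B2m and Nlrc5 do not follow the order of Ptprc among the PERK KO libraries.

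Other genes of the class I pathway were described from lists of 71 further genes, of which 62 were tested. They held 8 higher and 3 lower genes, with a median log2 change of 0.10. Over all genes tested 7.66% were higher and 6.13% lower, so the number of lower genes was near the background. The largest part of the 8 came from nonclassical class I chains, where 6 of 12 tested were higher and 0 lower. H2-M3, which presents formylated peptides, stood at 4.09 ± 0.621 CPM in Scramble and 13.9 ± 4.85 CPM in PERK KO tumours (log2 change 1.76, edgeR adjusted p = 0.00237). H2-T23, which encodes Qa-1, stood at 2.99 ± 0.578 and 14.4 ± 9.49 CPM (2.26, edgeR adjusted p = 0.00366). Fcgrt, the neonatal Fc receptor chain, stood at 10.7 ± 0.644 and 27.8 ± 14.2 CPM (1.38, edgeR adjusted p = 0.0116). H2-Q6 stood at 1.28 ± 0.919 and 10.2 ± 6.74 CPM (2.98, edgeR adjusted p = 0.0126). Of the 105-base windows, 9.59% for H2-Q6 and 11.18% for H2-Q7 also occur in other genes. These genes include the other of the pair, so the split of reads from such windows is uncertain.

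In the general machinery of cutting, trimming and loading, few genes passed the test. Of 8 peptide loading and trimming genes 0 were higher (1 at an unadjusted p under 0.05, 1 with DESeq2 and 0 with limma voom), and 1 was lower: Canx, the chaperone calnexin, with 1173 ± 27.0 and 956 ± 65.8 CPM (-0.30, edgeR adjusted p = 0.0269). The Canx call ended when any of 6 libraries was left out or with upper-quartile scaling (edgeR adjusted p = 0.0771). Of 14 constitutive proteasome core genes 0 passed in either direction (1 at an unadjusted p under 0.05 and 0 with DESeq2 or limma voom). The most abundant, Psma2 and Psmb7, had log2 changes of 0.18 and -0.09. Of 8 proteasome activator and assembly genes 0 passed (1 at an unadjusted p under 0.05 and 0 with DESeq2 or limma voom). Psme3 stood at 0.00 and Psme1, a subunit of the activator PA28, at 0.49 (edgeR adjusted p = 0.142).

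Among 14 factors that act at class I promoters, 2 were higher and 1 lower, which is near the background shares of 7.66% and 6.13% for so few genes. At an unadjusted edgeR p under 0.05 there were 6 of 14, with 4 higher, against 4448 of 16662 genes tested, with 2224 higher. DESeq2 called 3 higher and 1 lower, and limma voom 2 and 1. Irf8, an interferon regulatory factor of myeloid and dendritic cells, stood at 7.08, 7.13, 1.86 and 4.53 CPM in Scramble and at 24.2, 48.0, 31.8 and 136 CPM in PERK KO tumours (log2 change 3.54, edgeR adjusted p = 0.0148). It was 2.74 without PERK KO library 4, and the call ended without Scramble library 3 or 5 (edgeR adjusted p = 0.0501 and 0.0511). Irf1, a direct target of interferon signalling, stood at 14.7 ± 1.14 and 22.7 ± 3.87 CPM (0.63, edgeR adjusted p = 0.0196), and its call ended when any 1 Scramble library was left out or with library totals alone (edgeR adjusted p = 0.0578). Rfx5, a subunit of the complex that Nlrc5 joins, fell by 0.42 on the log2 scale, from 34.2 ± 2.37 to 25.6 ± 2.94 CPM (edgeR adjusted p = 0.0371), a call that ended when any of 6 libraries was left out and with each of the 3 other scalings (edgeR adjusted p = 0.0514 to 0.0706).

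In the interferon-gamma receptor pathway, 1 of 8 tested genes was higher (Irf1) and 1 lower, near the background shares of adjusted calls for so few genes. At an unadjusted edgeR p under 0.05 there were 6 of 8, with 5 higher, against 4448 of 16662 genes tested, with 2224 higher. DESeq2 called 2 higher and 1 lower, limma voom 1 and 1, and the median log2 change was 0.45. Ifngr2, a receptor chain, fell by 0.41 on the log2 scale, from 84.5 ± 5.46 to 63.4 ± 6.01 CPM (edgeR adjusted p = 0.0155). Its call ended without Scramble library 3. Ifng itself did not pass the filter: it was at 0 in 3 of 4 Scramble libraries and at 0.938, 0.366, 0.186 and 0 CPM in PERK KO libraries 1 to 4.

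The genes most like the set were found by Pearson r, over 8 libraries and with log2 CPM centred within each group, between each gene and the mean of the 10. Of 16652 genes the highest were Gatm (0.995), Icam1 (0.992), Tagln2 (0.991), Pik3ap1 (0.990) and Lsp1 (0.989). Ptprc was 13th of 16652, with an r of 0.981. Irf1 had an r of 0.638. All these values describe libraries that share depth and cell makeup.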

How the data were processed

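The members and gene lists were chosen with earlier results of these data known. Per the labels, RNA of bead-enriched cells (100 ng) was made into stranded libraries and sequenced as 105-base pairs. Per the submitters' processing notes, the tools were STAR 2.5.3a, bcl2fastq, DESeq2 1.30.1 and HTSeq 0.6.1, and the build was mm10. Their settings are not given in the sources used here. The deposited raw table holds whole-number counts per gene and library, and the deposited normalized table was not used.

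Genes were filtered with filterByExpr by group, scaled with TMM factors (0.863 to 1.03) and tested with edgeR 4.0.16 (robust quasi-likelihood fit, ~ group) in R 4.3.3, with Benjamini-Hochberg adjustment over all 16662 genes and a threshold of 0.05. The biological coefficient of variation was 46.3%. Further edgeR fits used the log Ptprc count as offset or the log2 CPM of Ptprc (prior count 2) as covariate, both over 16661 genes. Ratios were compared by an exact permutation test over 70 assignments. The scripts were tested on simulated data. Genes named are the members, Ptprc, Eif2ak3, Kit, Psmb5, Psmb6, Psmb7, up to 4 called genes of each pathway list by smallest p (the 2 most abundant where none was called) and the 5 genes most like the member mean. H2-Q7, Ifng, Mpo, Elane and Psme1 were added after their values were seen, where not taken by that rule. Positions come from GENCODE M21.

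Alternatives were DESeq2 1.42.0, voom (limma 3.58.1), 3 other scalings, 2 other filters, a fit that is not robust, 3 covariates, a pan-leukocyte offset, leaving out each library and a replicate block. Tables and plots used Python 3.11.15, numpy 2.4.6, pandas 2.3.3 and matplotlib 3.10.9.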

Additional observations from a re-analysis of the deposited data

Results flagged for a closer look

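A value that stands apart from the other 3 libraries of its group, by Dixon's test at 95%, was found in 4 of 62 groups tested, and chance gives about 1 in 20 groups. Tap2 stood at 22.6 CPM in PERK KO library 4, against 8.48 to 9.88 CPM in the other PERK KO libraries. The nonclassical chain H2-T23 stood at 28.6 CPM in the same library, against 9.03 to 10.1 CPM. Ptprc was also highest in that library, at 115 CPM, and the part of this in both values was not tested. Psmb7 stood at 229 CPM in Scramble library 5, against 192 to 197 CPM in the other Scramble libraries. Irf1 stood at 13.0 CPM in Scramble library 4, against 15.1 to 15.3 CPM.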

How the results depend on the processing

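The 9 higher members stayed 9 with DESeq2, voom, each scaling, each filter and the fit that is not robust, and were 8 to 9 when a library was left out. Same-numbered libraries deviated with correlations of -0.0091, 0.098 and -0.20, and 2 of 6 resembled their own number most, so the numbers were not treated as pairs. With the replicate block, whose estimate rests on the 3 numbers that both groups hold, 1 member was called, H2-D1, while the log2 changes of the other 8 of these 9 were 0.97 to 3.26, and Ptprc, at 3.12, did not pass (edgeR adjusted p = 0.137). In that fit 0 of the other pathway genes were higher or lower. The share of all genes called in that fit is not given here, so these counts cannot be set against a background. With each of the 3 covariates 0 members and 0 pathway genes were called. Of all genes, these fits called 0.066% (pan-leukocyte), 0.150% (Ptprc) and 0% (melanocyte), so the counts of 0 were near the background. Upper-quartile scaling left 1 lower pathway gene. Leaving out a library gave 4 to 10 higher and 0 to 3 lower pathway genes, 2 to 7 members lower per Ptprc count (0 with the replicate block) and 0 to 5 Ptprc slopes. The log2 ratio of Psmb8 to Psmb5 was 2.95 to 3.59 and that of Psmb9 to Psmb6 2.34 to 3.09 when a library was left out, where the smallest exact permutation p is 0.0571. With the replicate block they were 3.81 and 3.25, where it is 0.25.

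Signs turned in these fits, and the cause was not tested. With the pan-leukocyte covariate, log2 differences were -0.12 for H2-K1, -0.20 for Tap2, -0.30 for Tapbp, -0.49 for Psmb10, -0.10 for Fcgrt, -0.0040 for H2-Q6 and -0.17 for Ptprc, itself in that list. With the Ptprc covariate they were -0.016 for H2-K1, -0.26 for Tapbp, -0.53 for Psmb10 and -0.041 for Fcgrt. With the melanocyte covariate, 93.6% of whose variance lies between the groups, they were -0.60 for H2-K1, -0.28 for Tap1, -0.54 for Tap2, -0.51 for Tapbp, -0.13 for Psmb10, -0.39 for H2-T23, -1.28 for Fcgrt and -0.59 for Ptprc. Per Ptprc count, Psmb9 was 0.36 with the pan-leukocyte offset, 0.025 with the replicate block and -0.24 to 0.26 when a library was left out, and Psmb8 was -0.078 to 0.33. Depth limits Psmb9 most, with as few as 28 counts in a library.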
